A study of Mus musculus with 2 samples.

Results

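The upper-layer identity genes examined here are Cux1, Cux2, Pou3f1, Pou3f2, Pou3f3, Rorb and Inhba. They were taken by symbol from the gene tables of both libraries, and all 7 were found among 28001 features. Their levels were followed from progenitors to neurons of the neonatal mouse forebrain, across kinds of excitatory neuron, and in animals with and without Gmnc.

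Neurons of the cerebral cortex arise from radial glia, mostly by way of intermediate progenitors, and the neurons of the deep layers are born before those of the upper layers. Cux1 and Cux2 encode homeobox factors used as markers of upper-layer neurons and act in the growth of their dendrites and synapses. Pou3f1, Pou3f2 and Pou3f3 (also Oct6, Brn2 and Brn1) encode POU-domain factors, and Pou3f2 and Pou3f3 act together in the production and migration of upper-layer neurons. Rorb encodes a nuclear receptor of layer 4 neurons, and Inhba encodes the subunit of activin A, a secreted ligand of the TGF-beta family.

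Single-cell RNA sequencing had been made of Gmnc-/- mice and wild-type littermates, all C57BL/6J, at postnatal day 0. Each genotype had 1 library, a pool of 4 animals from 2 litters whose cells cannot be assigned to single animals, from dissociated lateral and dorsal cortex with hippocampus of both hemispheres. Gmnc encodes a coiled-coil protein of the multiciliated cell programme, and the series is about the parts played in cortical morphogenesis by Cajal-Retzius cells that express p73 and by Reelin. With 1 library per genotype no difference has a replicate check, no test was made, and every Gmnc-/- to wild-type ratio compares these 2 libraries. Levels were summed over the cells of a class and are given as CPM, the counts of a gene's unique molecular identifiers (UMIs) scaled so that every profile has the same total. Ranges set in parentheses are 95% limits of counting error alone.

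The genes differ in size and lie apart on the genome, apart from the pairs on chromosomes 4 and 5 (coordinates are those of mm10). Cux1 spans chr5:136248135-136567490 and Cux2 spans chr5:121856366-122050102, both on the minus strand, with up to 24 and 23 exons in a transcript. Pou3f1 (chr4:124656807-124660655, plus strand), Pou3f2 (chr4:22482780-22488366, minus strand) and Pou3f3 (chr1:42695768-42703176, plus strand) each have 1 annotated exon. Rorb spans chr19:18930605-19111196 on the minus strand and Inhba spans chr13:16011851-16031621 on the plus strand. Antisense genes overlap Cux1 (Gm16599), Cux2 (Gm3970 and Gm15637), Pou3f1 (Gm2164) and Inhba (Gm48444). All of these but Gm48444 were counted as features of their own. The sources used here do not say whether strand was used in counting, so it is not known whether antisense reads entered the counts of these members. In the last 1000 bases of the genes, where 3-prime reads fall, the longest run of letters that 2 members share is 31 bases, in Pou3f3 and Rorb, and no other pair shares more than 13.

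The 250 bases before the annotated start were read from RefSeq promoter windows (GRCm38.p6), which hold 8 windows for 6 of the 7 genes. The windows of Pou3f2 and Pou3f3 are shown because the levels of these genes run together across the cell classes described below, and the upstream window of Rorb because its levels along the progenitor-to-neuron stages take another course. They are written 5-prime to 3-prime on the strand of the gene, with CCAAT, or ATTGG where it lies on the other strand, in capitals.
Pou3f2, chr4:22488367-22488616, minus strand: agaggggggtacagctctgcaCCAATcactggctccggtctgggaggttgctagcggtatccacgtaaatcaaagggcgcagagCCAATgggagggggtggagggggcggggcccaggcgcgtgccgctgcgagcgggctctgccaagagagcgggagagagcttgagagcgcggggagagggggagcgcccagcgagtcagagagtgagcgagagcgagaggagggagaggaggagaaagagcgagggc
Pou3f3, chr1:42695518-42695767, plus strand: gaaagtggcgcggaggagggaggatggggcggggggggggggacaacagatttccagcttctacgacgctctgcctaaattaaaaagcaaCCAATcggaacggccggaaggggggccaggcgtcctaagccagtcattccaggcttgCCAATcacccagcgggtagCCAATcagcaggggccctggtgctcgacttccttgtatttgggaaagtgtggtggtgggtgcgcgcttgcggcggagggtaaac
Rorb, chr19:19111197-19111446, minus strand: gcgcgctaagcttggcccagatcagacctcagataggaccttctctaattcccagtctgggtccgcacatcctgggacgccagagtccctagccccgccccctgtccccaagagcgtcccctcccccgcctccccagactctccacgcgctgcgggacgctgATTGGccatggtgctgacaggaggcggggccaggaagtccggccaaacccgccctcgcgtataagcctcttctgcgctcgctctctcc

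CCAAT was in these 3 of the 8 windows and in 33.8% of 32851 windows of the same length. The site ATCGAT, searched as a Cux-type site, was in 1 of the 8, a window of Cux2, and in 0.728% of all windows. The octamer ATGCAAAT, which reads ATTTGCAT on the other strand, a POU-type site, was in 0 of 8 and in 1.6% of all windows, and the nuclear receptor half-site AGGTCA, which reads TGACCT on the other strand, was in 0 of 8 and in 14.0%. A match describes letters in a window and not a bound site.

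The Gmnc-/- library held 155482657 UMIs in 27663 barcodes and the wild-type library 88905819 UMIs in 13033 barcodes, and 85 barcodes were found in both. After the cell filter and the removal of called doublets, 21184 Gmnc-/- and 10478 wild-type cells with a median of 4484 and 5994.5 UMIs were used. Cells were clustered without the 7 genes and named, with "-like" added, from markers that do not include them. The classes used most were radial glia (1820 Gmnc-/- and 822 wild-type cells), intermediate progenitors (1004 and 354), young migrating excitatory neurons (1512 and 471), upper-layer callosal neurons (1212 and 545), layer 5 neurons (106 and 70), layer 6 corticothalamic neurons (208 and 77), hippocampal pyramidal neurons (608 and 201) and dentate neuroblasts or granule neurons (493 and 206). No cluster was named for the subplate, and 1985 Gmnc-/- and 1090 wild-type cells of the excitatory lineage stayed unnamed. The excitatory neurons as a whole, 4139 Gmnc-/- and 1570 wild-type cells, join the named neuron classes and leave the unnamed cells out. Cycling radial glia and cycling intermediate progenitors were classes of their own and are not in the progenitor-to-neuron stages below. Of the 8 upper-layer callosal markers found, 7 reached 10 CPM in the Gmnc-/- and 8 in the wild-type upper-layer class, with summed levels of 5335 and 5057 CPM. Cajal-Retzius markers summed to 19.6 and 83.6 CPM there, and erythroid markers to 1046 and 520 CPM. Of the 7 Cajal-Retzius markers, Lhx1, Lhx5 and Ebf3 were at 0 in the Gmnc-/- upper-layer class and none in the wild-type class, and of the 7 erythroid markers 4 reached 10 CPM in each and Hemgn was at 0 in the wild-type class; their part in the results was not tested.

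Free RNA in the droplets gives UMIs in cells that do not express a gene, and the level this may reach differed between the libraries. In erythroid-like cells, red blood cell precursors that should lack these genes, Cux1 was at 52.8 CPM in the Gmnc-/- library and 17.2 CPM in the wild-type library, Pou3f3 was at 90.4 and 27.3 CPM, and Cux2 at 21.3 and 4.05 CPM. The other levels there were 24.0 and 14.7 CPM for Pou3f1, 60.5 and 18.2 CPM for Pou3f2, 24.8 and 15.2 CPM for Rorb, and 0.776 and 0 CPM for Inhba, the last from 2 and 0 UMIs, which allows up to 1.52 CPM in the wild-type library. Apart from Inhba, for which the counts give no direction, 6 of the 7 were thus at a higher level in Gmnc-/- erythroid-like cells. Past 1.5-fold higher were 4 of the 6 members measured in this class, as were many other genes, 62.8% of the 4814 measured.

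From progenitors to neurons the 7 genes followed 3 courses. Cux2, Pou3f1 and Inhba were low in radial glia and higher in young migrating and upper-layer neurons, though not in every neuron subtype. Cux1, Pou3f2 and Pou3f3 were already present in radial glia and were highest in young migrating or upper-layer neurons. Rorb was lower in intermediate progenitors and young neurons than in radial glia. The radial glia class scored 3.458 on its own list and 2.976 on the next, that of astrocytes. The astrocyte markers Aldoc and Aldh1l1 were among its leading genes. The part of astrocyte character in the levels of this class was not tested. Set against radial glia, 5 of 7 genes were past 1.5-fold higher in the named excitatory neurons as a whole of the Gmnc-/- library. In the wild-type library 3 of 7 were, and 1 was past 1.5-fold lower in each library. Over all measured genes 47.8% and 49.6% were past that fold in either direction, 20.9% and 23.3% in the higher and 26.9% and 26.3% in the lower direction. The median log2 ratio of the 7, computed with 5 CPM added to each level, was 0.65 and 0.56, against -0.07 and -0.02 over all measured genes.

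Cux1, the more broadly expressed of the homeobox genes, stood at 259 CPM in radial glia, 333 CPM in intermediate progenitors, 464 CPM in young migrating neurons and 501 CPM in upper-layer neurons of the Gmnc-/- library. The wild-type library had 194, 228, 397 and 386 CPM in the same order of classes. Both libraries thus held Cux1 at every stage, about level between young and upper-layer neurons, with an upper-layer to young ratio of 1.08 (1.03 to 1.14) in the Gmnc-/- and 0.973 in the wild-type library. Cux2 was at 21.7, 165, 349 and 281 CPM along these stages in the Gmnc-/- library and at 20.1, 97.1, 340 and 270 CPM in the wild-type library. Its radial glia level in the Gmnc-/- library, 21.7 CPM (19.03 to 24.5), differed from the 21.3 CPM (16.1 to 27.8) of erythroid-like cells by less than the counting error, and intermediate progenitors of that library were 7.60-fold (6.59 to 8.79) above radial glia.

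Pou3f1, a POU-domain gene known for its part in Schwann cell myelination, was at 11.003, 124, 302 and 192 CPM in radial glia, intermediate progenitors, young and upper-layer neurons of the Gmnc-/- library. In the wild-type library its levels were 10.511, 129, 353 and 224 CPM, and the radial glia levels lay below those of erythroid-like cells in both. Pou3f2 was at 242, 615, 762 and 389 CPM in the Gmnc-/- library and at 215, 611, 753 and 347 CPM in the wild-type library. Pou3f3 was at 337, 651, 890 and 519 CPM in the Gmnc-/- library and at 235, 505, 715 and 350 CPM in the wild-type library. All 3 POU genes were lower in upper-layer than in young migrating neurons: the ratios in the Gmnc-/- library were 0.635 for Pou3f1, 0.510 for Pou3f2 and 0.583 for Pou3f3, and in the wild-type library 0.635, 0.461 and 0.490.

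Rorb fell from radial glia to young neurons and was higher again in the upper-layer class. Its levels were 378, 122, 68.7 and 239 CPM in the Gmnc-/- library and 355, 107, 85.4 and 242 CPM in the wild-type library. Its upper-layer to young ratio was 3.47 in the Gmnc-/- and 2.83 in the wild-type library. The upper-layer class joins 2 sub-clusters, described below. The larger held Rorb at 72.7 and 69.1 CPM, near or below young neurons, and the smaller at 532 and 349 CPM. Outside the excitatory lineage Rorb had its highest level in astrocyte-like cells, at 595 and 514 CPM. Inhba was sparse, with 1.23, 3.21, 12.2 and 33.8 CPM in the Gmnc-/- library and 1.30, 2.84, 7.83 and 53.9 CPM in the wild-type library, and its upper-layer level rested on 166 and 165 UMIs.

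**Figure D1:**
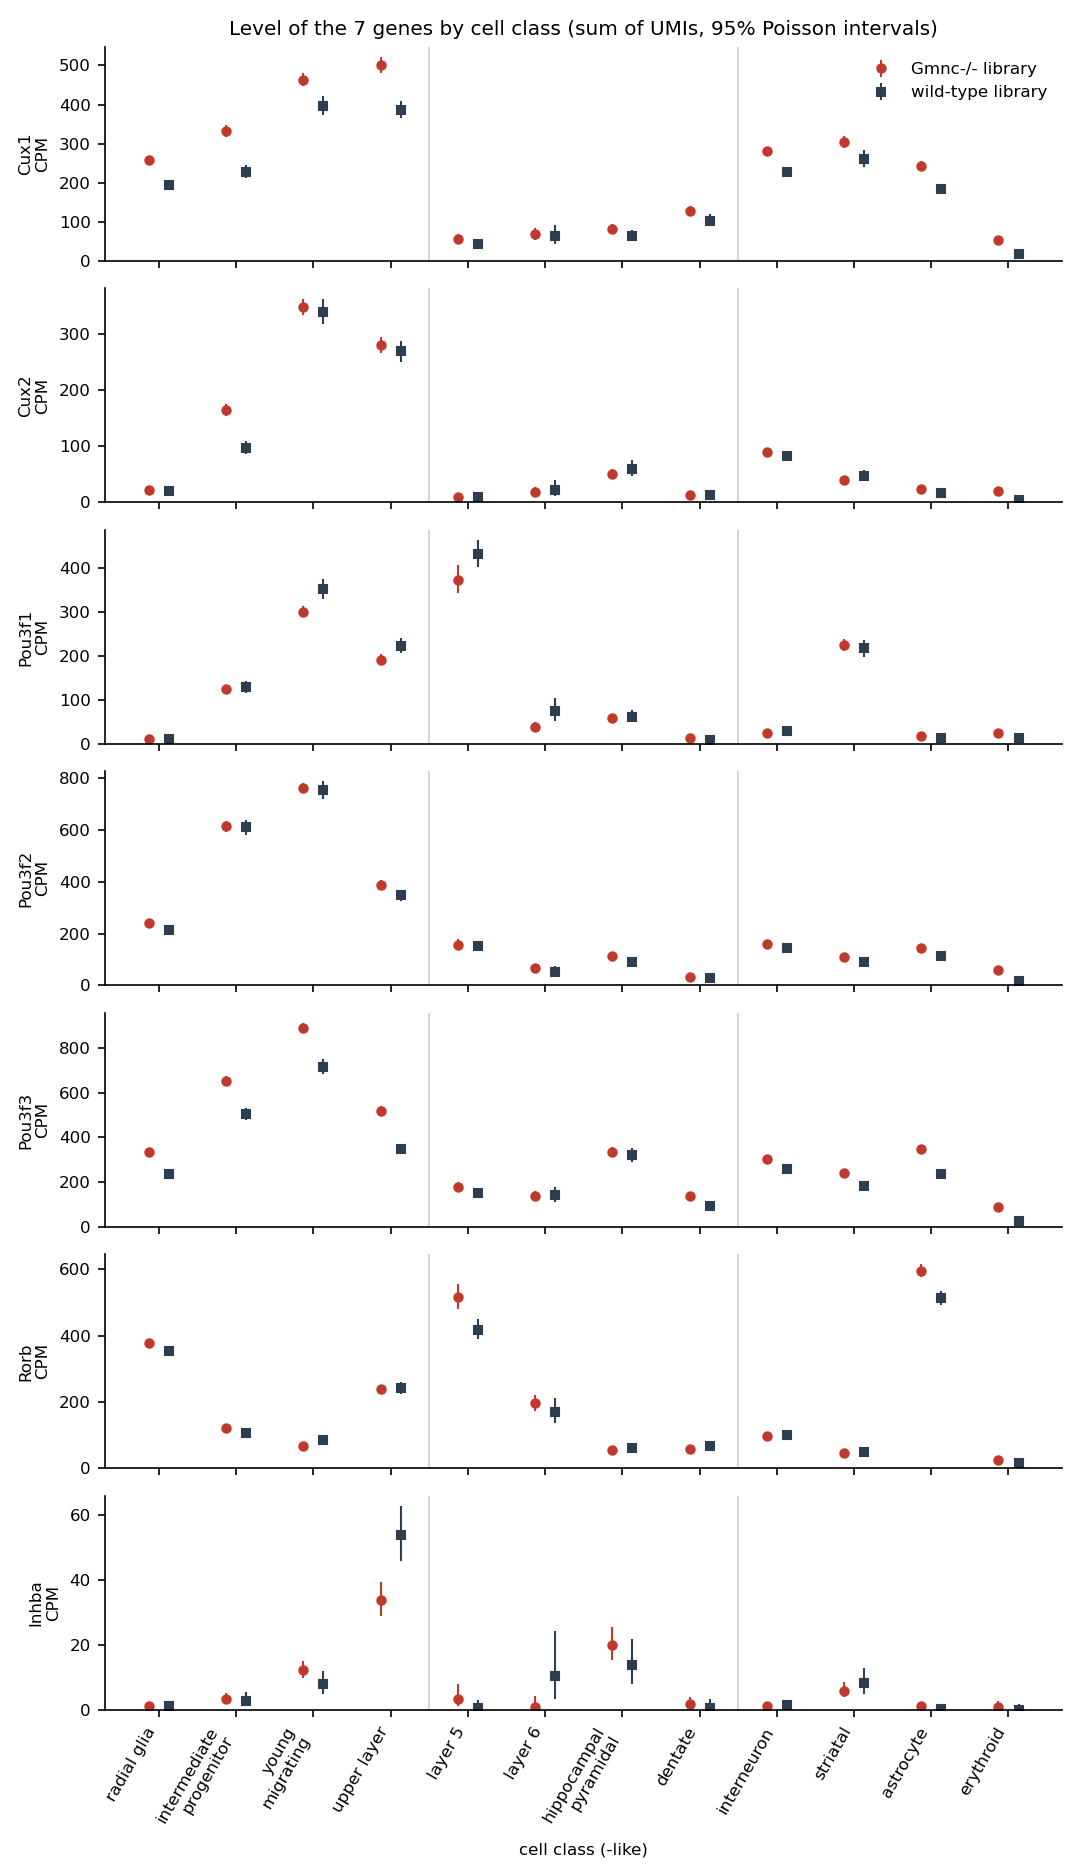
Level of each gene (CPM, linear axes that start at 0) in 12 cell classes, with the Gmnc-/- library as red circles and the wild-type library as dark squares; bars are 95% Poisson intervals. Cux2 and the POU genes peak in young migrating neurons of the progenitor-to-neuron series, Pou3f1 and Rorb are also high in layer 5, and Rorb is high in radial glia and astrocytes.

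Among the excitatory subtypes, Cux1, Cux2, Pou3f2 and Pou3f3 were higher in the upper layers than in both deep layers in each library. Pou3f1 and Rorb were instead higher in layer 5 than in the upper-layer class as a whole. Cux1 was at 501 CPM in upper-layer, 55.1 CPM in layer 5 and 68.3 CPM in layer 6 neurons of the Gmnc-/- library, and at 386, 44.0 and 64.6 CPM in the wild-type library. The upper-layer to layer 5 ratio of Cux1 was 9.10 (7.29 to 11.5) and 8.79, and that to layer 6 was 7.34 (5.96 to 9.15) and 5.99. Cux2 was at 281, 10.2 and 18.0 CPM in the Gmnc-/- library and at 270, 10.3 and 22.9 CPM in the wild-type library. These were the widest gaps of the well-counted genes, with ratios to layer 5 of 27.5 (16.6 to 49.3) and 26.1. In Gmnc-/- erythroid-like cells Cux1 was at 52.8 CPM, near its deep-layer levels, and Cux2 at 21.3 CPM, above its deep-layer levels. Those cells had a median of 3390 UMIs, against 11882.5 in layer 5 and 5338.5 in layer 6 neurons of that library. The part of free RNA in the deep-layer levels, and with them in these ratios, was not tested.

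Pou3f1 stood at 192 CPM in upper-layer, 374 CPM in layer 5 and 37.5 CPM in layer 6 neurons of the Gmnc-/- library, and at 224, 433 and 74.97 CPM in the wild-type library. Layer 5 was thus its highest class in the lineage, and the upper-layer to layer 5 ratio was 0.512 (0.460 to 0.570) and 0.517 while the ratio to layer 6 was 5.10 and 2.99. Pou3f2 had upper-layer to layer 5 ratios of 2.47 and 2.28 and ratios to layer 6 of 5.76 and 6.67. Pou3f3 had 2.89 and 2.32 to layer 5 and 3.76 and 2.47 to layer 6. Its hippocampal pyramidal level, at 337 and 320 CPM, was above both deep layers, and in the Gmnc-/- library the hippocampal level differed from that of radial glia by less than the counting error (ratio 0.9996, 0.933 to 1.07).

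Rorb was at 516 CPM in layer 5 and 196 CPM in layer 6 neurons of the Gmnc-/- library, and at 418 and 171 CPM in the wild-type library. The upper-layer class as a whole lay between them, but it joins 2 sub-clusters, described below, of unlike Rorb level. These were at 532 and 72.7 CPM in the Gmnc-/- and at 349 and 69.1 CPM in the wild-type library. For the whole class the Rorb ratio to layer 5 was 0.462 (0.421 to 0.507) and 0.578. The ratio to layer 6 was 1.22 (1.06 to 1.40) and 1.42. Inhba gave 5 UMIs in layer 5 and 1 UMI in layer 6 of the Gmnc-/- library, and 1 and 5 UMIs in the wild-type library, so its deep-layer levels are barely measured. Outside the neocortical subtypes Inhba had its next highest level in hippocampal pyramidal neurons, at 20.1 CPM (64 UMIs) and 13.7 CPM (17 UMIs).

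With layers 5 and 6 joined, 5 of the 7 genes were past 1.5-fold higher in upper-layer neurons in each library, and 1 in the Gmnc-/- and 2 in the wild-type library were past 1.5-fold lower. Of all measured genes 23.1% and 33.4% were past that fold in either direction, 11.3% and 20.3% higher and 11.7% and 13.1% lower. The median log2 ratio of the 7 was 1.72 in the Gmnc-/- and 1.36 in the wild-type library, against 0.03 and 0.12 over all measured genes, and with a looser cell filter, under which the upper-layer class held 463 of the 540 cells of its smaller sub-cluster and 46 of the 1217 of the larger, 0.74 and 0.70. The joined class was weighted differently in the libraries, since layer 5 gave 52.4% of its UMIs in the Gmnc-/- and 79.3% in the wild-type library. Pou3f1 had a joined ratio of 0.895 and 0.624, while its ratios to layer 5 alone were 0.512 and 0.517.

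**Figure D2:**
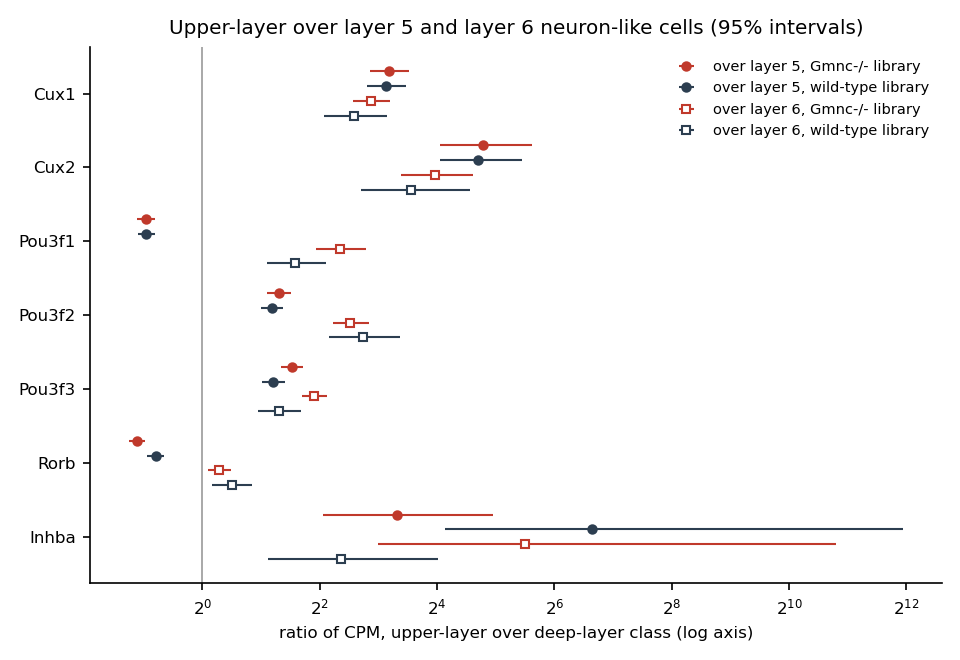
Ratio of CPM in upper-layer over layer 5 (filled circles) and over layer 6 (open squares) neuron-like cells on a log axis, with 95% counting intervals, the Gmnc-/- library in red and the wild-type library in dark. Cux1, Cux2, Pou3f2 and Pou3f3 lie to the right of 1 in all 4 ratios. Pou3f1 and Rorb lie left of 1 for layer 5 and right of 1 for layer 6. The upper-layer value of Rorb joins sub-clusters of unlike level. The Inhba bars are wide because the deep layers gave 5 UMIs or fewer per class.

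The upper-layer class was made of 2 sub-clusters that held the 7 genes at different levels in both libraries, Inhba and Rorb on one side and the Cux genes with Pou3f2 and Pou3f3 on the other. Sub-cluster 0 (911 Gmnc-/- and 306 wild-type cells) had Clstn2 among its leading genes, and sub-cluster 9 (301 and 239 cells) had Ccbe1, Lingo2, Fam19a1 and Mef2c. The upper-layer name is weakly supported for both. Sub-cluster 0 scored 0.863 on the upper-layer list and 0.519 on the next, that of young migrating neurons, where a gap of 0.3 was asked. With the looser filter 1072 of its 1217 cells were unnamed, and in clustering with the 7 genes 1102. Sub-cluster 9 scored 1.325, and 0.421 on its next list, that of layer 5. All 8 upper-layer markers were detected in sub-cluster 9, but 0 of them were among its leading genes. Its leading genes Gm28928, Fam19a1 and Dpp10 were also among those of the layer 5 sub-cluster. Sub-cluster 9 held nearly all Inhba, 152 of 166 UMIs in the Gmnc-/- and 162 of 165 in the wild-type library. Its Inhba level was 85.8 CPM in each library, against 4.46 and 2.56 CPM in sub-cluster 0, a ratio of 19.2 (11.1 to 36.0) and 33.5 (11.3 to 164).

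Rorb was also concentrated in sub-cluster 9, at 532 CPM against 72.7 CPM in sub-cluster 0 of the Gmnc-/- library and at 349 CPM against 69.1 CPM in the wild-type library. The sub-cluster 9 to 0 ratio of Rorb was 7.32 and 5.05. The Cux genes and 2 of the POU genes were lower in sub-cluster 9. For Cux1 the ratio was 0.728 and 0.461, for Cux2 0.542 and 0.538, for Pou3f2 0.283 and 0.346, and for Pou3f3 0.346 and 0.285. Pou3f1 was near level between the sub-clusters, at 0.884 (0.769 to 1.01) and 1.04 (0.886 to 1.21). Of all measured genes, 27.5% in the Gmnc-/- and 34% in the wild-type library were past 1.5-fold between these sub-clusters.

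**Figure D3:**
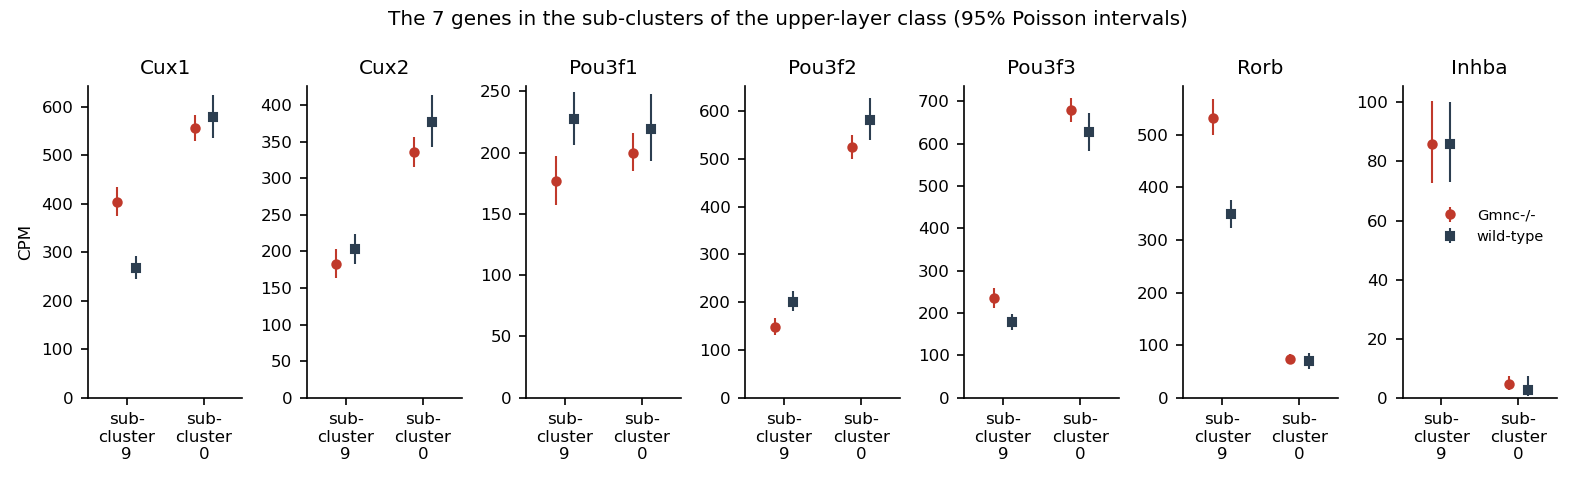
Level of each gene (CPM, axes start at 0) in sub-cluster 9 and sub-cluster 0 of the upper-layer class, Gmnc-/- library as red circles and wild-type library as dark squares, with 95% Poisson intervals. Rorb and Inhba are high in sub-cluster 9, Cux1, Cux2, Pou3f2 and Pou3f3 are higher in sub-cluster 0, and Pou3f1 is similar in both.

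The comparison of the genotypes asks whether these genes are kept at their levels without Gmnc. In the named excitatory neurons as a whole 0 of the 7 genes were past 1.5-fold between the libraries in either direction. Of 9515 measured genes 7.19% were. Pou3f3 was at 512 CPM in Gmnc-/- and 349 CPM in wild-type excitatory neurons (ratio 1.47, 1.41 to 1.52) and Cux1 at 312 and 235 CPM (1.33, 1.27 to 1.39), the highest of the 7 ratios. Rorb was at 146 and 184 CPM (0.794, 0.7503 to 0.841), Pou3f1 at 186 and 230 CPM (0.805, 0.766 to 0.847) and Inhba at 15.7 and 19.2 CPM (0.821, 0.688 to 0.982), the lowest. The pooled Rorb value mixes classes in unlike proportions: its ratio was 1.23 (1.12 to 1.37) in layer 5 and 1.15 (0.892 to 1.49) in layer 6 but 0.805 (0.684 to 0.9497) in young migrating, 0.840 (0.659 to 1.07) in dentate and 0.925 (0.704 to 1.23) in hippocampal pyramidal neurons. With equal weight for the parts of the class the log2 ratio of Rorb was 0.11, and with doublets kept that of Rorb was 0.17 and that of Inhba 0.35, so neither direction held under every setting. The median log2 ratio of the 7 was 0.21, against 0.08 over all measured genes, and was -0.059 with a mean over cells in place of the sum.

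In upper-layer neurons 1 of the 7 genes was past 1.5-fold, against 10.4% of 9512 measured genes, and this was Inhba, at 33.8 CPM in the Gmnc-/- and 53.9 CPM in the wild-type library (ratio 0.627, 0.503 to 0.783). Within sub-cluster 9, where the gene is expressed, its ratio was 0.9999 (0.796 to 1.26). Sub-cluster 9 gave 36.1% of the UMIs of the Gmnc-/- and 61.7% of those of the wild-type upper-layer class, and with equal weight for the 2 sub-clusters the log2 ratio of Inhba in the class was 0.03, against -0.60 for the sum. Pou3f3 had a ratio of 1.48 (1.38 to 1.59) in the class but 1.08 (0.997 to 1.18) in sub-cluster 0 and 1.32 (1.14 to 1.52) in sub-cluster 9. Pou3f2 had 1.12 (1.04 to 1.21) in the class and lay below 1 in each sub-cluster, at 0.901 (0.824 to 0.987) in sub-cluster 0 and 0.738 (0.628 to 0.865) in sub-cluster 9.

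Within sub-cluster 0 the 6 genes with at least 10 UMIs in both libraries had ratios between 0.892, for Cux2, and 1.08, for Pou3f3, and 0 of the 6 were past 1.5-fold, against 10.1% of measured genes. Within sub-cluster 9 the genes spread further, and 2 of 7 were past 1.5-fold, against 15.4% of measured genes. Rorb was at 532 CPM in the Gmnc-/- and 349 CPM in the wild-type library there (ratio 1.52, 1.38 to 1.69) and Cux1 at 405 and 267 CPM (1.52, 1.35 to 1.70). Pou3f2 was at 148 and 201 CPM and Pou3f1 at 177 and 227 CPM (0.778, 0.670 to 0.902), both lower in the Gmnc-/- library. The class value of Rorb, in which the sub-clusters are mixed in unlike proportions, was 0.987 (0.899 to 1.08).

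Along the lineage, Cux2 in intermediate progenitors had the highest well-counted ratio, with 165 CPM in the Gmnc-/- and 97.1 CPM in the wild-type library (1.70, 1.48 to 1.95). It was the only gene of the 7 past 1.5-fold there, against 11.9% of measured genes, and its ratio was 1.498 (1.28 to 1.77) and 1.65 (1.26 to 2.17) in the 2 sub-clusters of intermediate progenitors. In radial glia Cux2 stood at 1.08 and in young migrating neurons at 1.03. Pou3f1 in layer 6 had the lowest ratio among values with at least 10 UMIs in each library, with 37.5 CPM from 50 UMIs and 74.97 CPM from 36 UMIs (0.500, 0.320 to 0.791), in a comparison where 2 of the 7 genes and 24.6% of measured genes were past 1.5-fold. The other was Inhba, also lower in the Gmnc-/- library but from 1 and 5 UMIs (0.0721, 0.00152 to 0.644), and in cycling intermediate progenitors Inhba rested on 2 and 10 UMIs (0.180, 0.0191 to 0.843). In layer 5, where its level is highest, the ratio of Pou3f1 was 0.863 (0.773 to 0.964), in young migrating neurons it was 0.854 and in intermediate progenitors 0.964.

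Cux1 and Pou3f2 were higher in the Gmnc-/- library in all 19 named classes with at least 50 cells in each library, erythroid-like cells left out, and Pou3f3 in 18 of them, with layer 6 as the exception at 0.975. The lowest of these ratios were small, 1.05 for Cux1 in endothelial-like cells and 1.0006 for Pou3f2 in border macrophage-like cells. Class values join sub-clusters, and within these the direction was not always kept. Pou3f2 was at 0.901 and 0.738 in those of the upper-layer class. It was at 0.948 and 1.06 in those of young migrating neurons and at 0.957 and 1.04 in those of intermediate progenitors. Cux1 was at 0.961 and 1.52 in those of the upper-layer class. Of the 5999 genes measured in every one of the 19 classes, 14.2% were higher in all 19 and 23.5% in at least 18. The other genes had mixed directions, with Cux2 higher in 14, Pou3f1 in 10, Rorb in 9 and Inhba in 9 of the 19 classes. None of these was measured in all 19, so the shares above do not cover them. Among classes with at least 10 UMIs in both libraries, Cux2 was higher in 13 of 18 and Pou3f1 in 9 of 18. Rorb was higher in 9 of 18 and Inhba in 2 of 5. Apart from Inhba, the levels in erythroid-like cells given above were also higher in the Gmnc-/- library. Their part in these ratios was not tested.

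**Figure D4:**
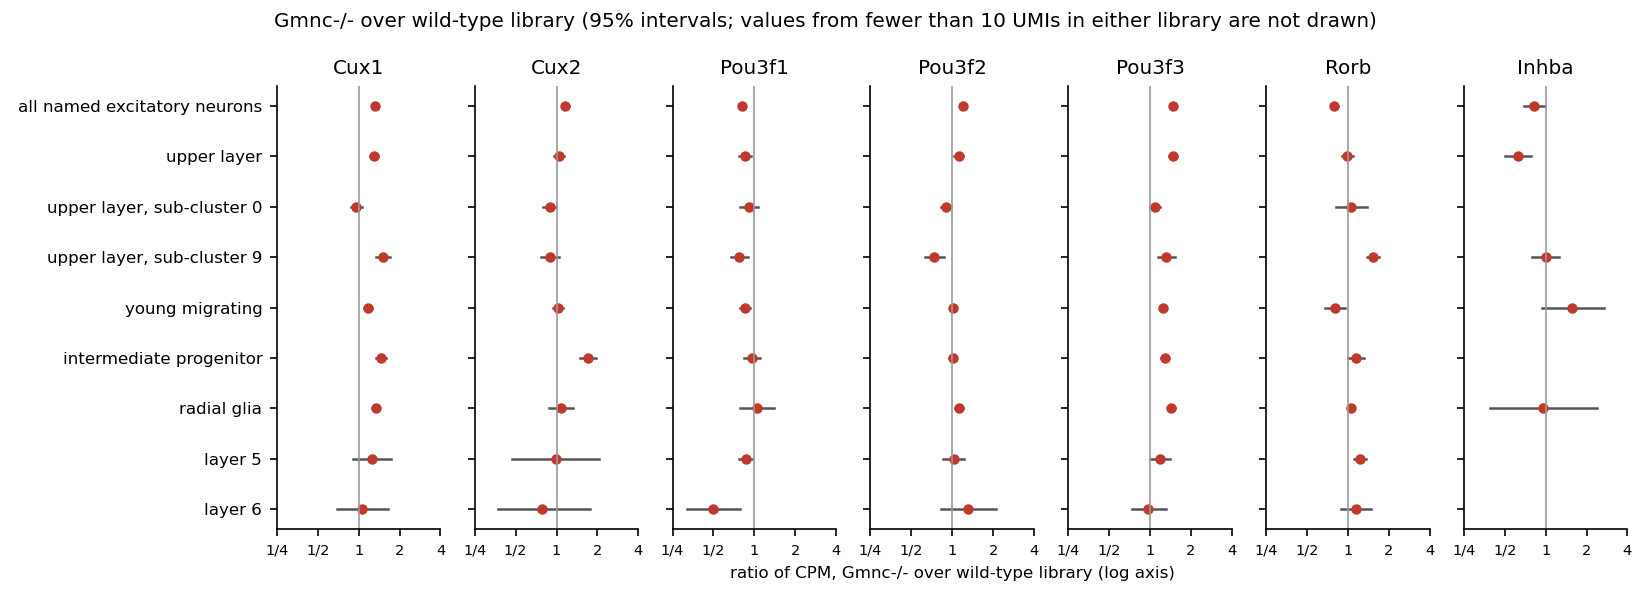
Ratio of CPM, Gmnc-/- over wild-type library, for each gene (log axes, grey line at 1) in the excitatory lineage, with 95% counting intervals; ratios from fewer than 10 UMIs in either library are not drawn. Cux1 and Pou3f3 lie mostly right of 1, Pou3f1 mostly left of 1, Inhba is at 0.627 in the whole upper-layer class and at 0.9999 in sub-cluster 9, and Rorb lies right of 1 in sub-cluster 9 and layer 5 and left of 1 in young migrating neurons.

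The share of upper-layer cells with a UMI was taken after thinning each cell to 2000 UMIs, which left out 310 Gmnc-/- and 89 wild-type cells and kept 902 and 456. Cux1 was found in 55.9% and 51.5% of these cells, Cux2 in 38.7% and 41.4%, Pou3f1 in 27.8% and 28.1%, Pou3f2 in 47.5% and 42.5%, and Pou3f3 in 57.2% and 53.3%. Rorb was found in 19.96% and 20.2%, and Inhba in 3.66% and 6.36%. Without thinning the shares lay between 7.096%, for Inhba, and 69.1%, for Pou3f3, in the Gmnc-/- library and between 10.46%, for Inhba, and 70.3%, for Cux1, in the wild-type library. Erythroid-like cells had a median of 3390 and 4309.5 UMIs before thinning, against 3030 and 3561 in upper-layer cells, and gave far lower shares, at most 11.6% and 5.35%, both for Pou3f3, and without thinning at most 21.2% and 12.2%. All 7 genes were thus seen in upper-layer cells more often than in that background in both libraries.

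Cux1 and Cux2 were found together in 27.8% (24.9% to 30.9%) of thinned Gmnc-/- and 27.0% (23.0% to 31.3%) of wild-type upper-layer cells, where independence would give 21.6% and 21.4%. Of cells with Cux1, 49.8% and 52.3% also held Cux2, against 24.6% and 29.9% of cells without it. Pou3f2 and Pou3f3 were together in 32.2% and 27.6% of cells, against 27.1% and 22.7% if independent. At least 3 of the 7 genes were found in 50.9% and 49.3% of cells, and none of the 7 in 6.98% and 8.77%. The makeup from 2 sub-clusters moves with these shares, and its part was not tested.

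Across 20 classes, the closest pair of members was Pou3f2 and Pou3f3, whose levels, on the log2 scale with 5 CPM added, had Pearson r of 0.952 in the Gmnc-/- and 0.936 in the wild-type library. The classes share a library and its depth, and these values are descriptions. Pantr1, a long non-coding RNA gene that lies 925 bases from the start of Pou3f3 on the opposite strand (chr1:42590782-42694842), was the gene most like both of them, with r of 0.969 and 0.946 to Pou3f3 and 0.962 and 0.9502 to Pou3f2. Cux2 was most like Epha3 (0.876 and 0.902), an ephrin receptor gene, and Pou3f1 most like the cadherin gene Cdh8 (0.882 and 0.908). Rorb was most like the protocadherin gene Pcdh10 (0.922 and 0.912), Inhba most like the cadherin gene Cdh12 (0.852 and 0.794), and Cux1 most like N4bp2 (0.830 and 0.849). The paralogs Cux1 and Cux2 had r of 0.567 and 0.582 to each other, and the lowest r in the Gmnc-/- library, 0.0890, was that of Cux1 and Pou3f1.

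Related genes were read in upper-layer neurons from lists chosen with earlier results of these data known. Of the 7 genes of a list of related transcription factors, 6 were measured, 2 were past 1.5-fold higher and 0 lower in the Gmnc-/- library, where 10.4% of all measured genes were past that fold in either direction: Pou3f4, at 19.8 and 6.86 CPM, and Pou6f1, at 127 and 75.1 CPM (ratio 1.69, 1.45 to 1.98). Of 15 activin pathway genes 10 were measured, 0 were past 1.5-fold higher and 1 was lower, the activin-binding inhibitor gene Fst, at 14.7 and 28.4 CPM (0.516, 0.372 to 0.714). The receptor genes Acvr1, at 120 and 146 CPM, and Acvr2a, at 142 and 156 CPM, and the transducer genes Smad2, at 121 and 98.7 CPM, and Smad4, at 126 and 100 CPM, stayed within that fold.

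Of 14 further upper-layer genes measured, 1 was past 1.5-fold higher and 1 lower in the Gmnc-/- library, the transcription factor genes Bhlhe22, at 295 and 174 CPM (1.70, 1.53 to 1.88), and Mef2c, at 1632 and 2530 CPM (0.645, 0.625 to 0.665). Mef2c is among the leading genes of sub-cluster 9, whose weight in the class differed between the libraries as given above. Of 9 deep-layer genes measured, 0 were higher and 2 were lower past that fold: Zfpm2, at 82.3 and 147 CPM, and Crym, at 6.52 and 15.7 CPM. The median log2 ratios were 0.20 for the related transcription factors, -0.07 for the activin pathway, -0.01 for the further upper-layer and -0.06 for the deep-layer list, against 0.03 over all measured genes. Past 1.5-fold in either direction were 1 of 10 activin pathway, 2 of 14 further upper-layer and 2 of 9 deep-layer genes, against the same 10.4% of all measured genes, and nothing particular to a list is read from these counts.

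Gene length and RNA quality moved with the genotype in these libraries. In excitatory neurons, genes that span under 10 kb had a median log2 ratio of -0.15 and genes over 100 kb one of 0.15; Cux1, Cux2 and Rorb span over 100 kb and the 3 POU genes under 10 kb. Mitochondrial genes took 1.43% of the UMIs of Gmnc-/- and 4.58% of those of wild-type upper-layer neurons, and genes over 100 kb took 38.7% and 35.6%. The part of these differences in the ratios was not tested.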

How the data were processed

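Cells were dissociated with a Miltenyi Neural Tissue Dissociation Kit (P) and loaded with 10x 3-prime version 3.1 chemistry, per the labels' protocols. The authors deposited UMI counts per gene and barcode, for which the submitters' processing notes name Cell Ranger 7.1.0 and mm10. The sources do not say whether intronic reads or strand entered the counting. Each deposited barcode has at least 500 UMIs.

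The cell filter asked for 1000 UMIs and under 10% mitochondrial UMIs. Scrublet, in scanpy 1.11.5, removed 4994 of 26178 Gmnc-/- (19.1%, with 22.1% expected) and 460 of 10938 wild-type cells (4.21%, with 10.4% expected). Both libraries were clustered together with leidenalg 0.10.2 (2000 variable genes, 30 principal components, 15 neighbours, resolution 1) without the 7 genes, Xist and Y-linked genes, and the excitatory lineage was clustered again. Of 34 clusters 2, and of 19 sub-clusters 8, stayed unnamed. The score limits for names were set after seeing the data, and the study's own names, not used here, may divide the cells otherwise.

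Sums of each class in each library were scaled to CPM. Sums carry exact Poisson, shares exact Clopper-Pearson and ratios exact conditional 95% intervals. A gene was measured at 10 CPM or more in either profile, and past 1.5-fold on the log2 ratio with 5 CPM added, which understates low genes. No test was made, because cells are not replicates. All 7 genes are named, with the 3 genes most like each in log2 level across classes of 50 or more cells (at 50 CPM or more in a class of each library); the text gives the closest of them. The members, lists and markers were chosen with earlier results of these data known. The calculation was checked on simulated counts. SciPy 1.17.1 was used. Alternatives were other cell filters (500 UMIs and 20%; 2000 UMIs and 5%), doublets kept, resolution 2, clustering with the 7 genes, cells with a female or male expression pattern alone, a prior of 1 CPM, other thinning, averaging over cells in place of summing, scaling by the median of ratios and, added after seeing the data, equal weight for the parts of a class. 1 gene of the lists is not reported here.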

Additional observations from a re-analysis of the deposited data

Results flagged for a closer look

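For 2 of the 7 genes the ratio of the Gmnc-/- to the wild-type library lay above 1 in a class and below 1 in another, with counting intervals that exclude 1 on both sides. The classes were picked as the furthest on each side, and no share over all measured genes is set beside this count. Nothing particular to these genes is read from it. The difference between the classes was not tested. Rorb was at 153 CPM in Gmnc-/- and 124 CPM in wild-type cycling interneuron-like cells, a ratio of 1.23 (1.13 to 1.34), and at 94.0 and 148 CPM in cycling intermediate progenitor-like cells, a ratio of 0.635 (0.473 to 0.850). Pou3f1 was at 17.9 and 12.7 CPM in cycling interneuron-like cells, a ratio of 1.41 (1.08 to 1.85), and at 37.5 and 74.97 CPM in layer 6 corticothalamic neuron-like cells, a ratio of 0.500 (0.320 to 0.791). The Pou3f1 levels in cycling interneuron-like cells lay below those of the erythroid-like cells in both libraries.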

How the results depend on the processing

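No paired analysis was possible because each genotype has 1 library. Of 42 values (7 genes in 6 comparisons), the direction was kept in all 42 with median-of-ratios scaling and in 41 at resolution 2. It was kept in 40 in female-pattern cells and with the stricter filter. The looser filter, male-pattern cells and a mean over cells each kept it in 38. It was kept in 37 in clustering with the 7 genes, in 35 with equal weight for the parts of a class and in 33 with doublets kept. A prior of 1 CPM also left all 42 directions, but this is no check. The same amount is added to both levels, so a prior cannot change a direction. The values below are log2 ratios, and where no value shows a cause, the cause was not tested.

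The median Gmnc-/- to wild-type ratio in excitatory neurons, 0.21, was 0.52 at resolution 2, 0.074 in clustering with the 7 genes, 0.13 with median-of-ratios scaling, -0.059 with a mean over cells and 0.10 with equal weight. In upper-layer neurons, 0.06, it was 0.24 in male-pattern cells and below 0 with a mean over cells (-0.041) and in clustering with the 7 genes (-0.029). The upper-layer to deep-layer median in the Gmnc-/- library, 1.72, was 0.74 with the looser filter, 2.14 with doublets kept, 0.63 in clustering with the 7 genes, 1.92 in female-pattern cells and 2.01 with a mean over cells. In the wild-type library, 1.36, it was 0.70 with the looser filter, 2.67 with doublets kept, 0.71 in clustering with the 7 genes, 1.99 in male-pattern cells, 1.89 with a mean over cells and 1.89 with equal weight. The excitatory to radial glia median in the Gmnc-/- library, 0.65, was 0.83 with the looser filter, 0.51 with doublets kept, 1.28 at resolution 2 and 0.12 with equal weight. In the wild-type library, 0.56, it was 0.69 with the looser and 0.75 with the stricter filter, 0.76 at resolution 2, 0.81 in clustering with the 7 genes, 0.85 in male-pattern cells, 0.81 with a mean over cells and 0.32 with equal weight.

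Of single genes past 1.5-fold, those that changed sign were Inhba in upper-layer neurons between the libraries (0.88 with doublets kept, 0.23 in male-pattern cells, 0.028 with equal weight); Rorb between upper and deep layers (0.48 with the looser filter and 0.56 in clustering with the 7 genes in the Gmnc-/- library, 0.30 and 0.063 in the wild-type library); in the wild-type library Pou3f1 between upper and deep layers (4.12 with doublets kept, 0.037 in male-pattern cells, 0.11 with a mean over cells) and Inhba (-0.78 with doublets kept); and Rorb between excitatory neurons and radial glia (0.30 at resolution 2). Genes within 1.5-fold changed sign too. Between the libraries the log2 ratios ran from -0.059 to 0.52 for Cux2, from -0.54 to 0.17 for Rorb and from -0.64 to 0.41 for Inhba in excitatory neurons, and in upper-layer neurons from -0.16 to 0.24 for Cux2, from -0.38 to 0.18 for Pou3f2 and from -0.28 to 0.93 for Rorb. Between upper and deep layers Pou3f1 ran from -0.91 to 2.73 in the Gmnc-/- library, and between excitatory neurons and radial glia Cux1 ran from -0.26 to 0.54 in the Gmnc-/- and from -0.19 to 0.77 in the wild-type library.

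Which cells the upper-layer name took in differed between settings. Of the 1217 cells of sub-cluster 0 and the 540 of sub-cluster 9, the class held 46 and 463 with the looser filter, 23 and 527 in clustering with the 7 genes, 1134 and 30 with doublets kept, 616 and 347 with the stricter filter, and 797 and 383 at resolution 2. With doublets kept, 504 cells of sub-cluster 9 and 166 of the 176 layer 5 cells fell in a cluster named for Cajal-Retzius cells. Shares of upper-layer cells with a UMI moved with depth, as for Cux1 in the Gmnc-/- library, at 55.9% after thinning to 2000 UMIs, 68.4% unthinned and 38.0% at 1000. In the wild-type library layer 6 held 77 cells and male-pattern deep-layer neurons 9, which limits those values.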

Other observations

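Some of the 7 genes were well above their erythroid-like levels outside the excitatory lineage. Pou3f1 was at 225 CPM in Gmnc-/- and 218 CPM in wild-type striatal projection neuron-like cells, against 192 and 224 CPM in its upper-layer class. Rorb was at 256 and 215 CPM in oligodendrocyte lineage-like cells. Cux2 was at 89.9 and 83.3 CPM in interneuron-like cells.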
